A study of Homo sapiens with 16 samples.

Results

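The 10 genes described here, WEE1, CDKN1A, CCND1, CDK4, CDC25B, CDC25A, AURKA, BUB1, MCM7 and CCNB1, encode regulators of the cell division cycle that have been linked to the circadian clock. They were taken by name from 20037 protein-coding genes, and every peak in a gene or within 5 kb of it (hg38) was collected from 13 lists of chromatin immunoprecipitation peaks. The lists held 77 peaks at these genes, 73 of BMAL1 and 4 of Myc, which joined into 22 sites. Of the 10 genes, 9 had a BMAL1 peak in at least 1 list and CCNB1 had none in any list.

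BMAL1 pairs with CLOCK and activates genes through the E-box, a short DNA element with the letters CACGTG. CHRONO, encoded by CIART, represses the activity of BMAL1 and CLOCK, and MYC proteins recognise the same element. The cell cycle is driven by cyclin-dependent kinases: CDK4 with D cyclins opens the cycle, and CDK1 with cyclin B drives mitosis. WEE1 holds CDK1 inactive by phosphorylation, CDC25 phosphatases remove that block, and CDKN1A (p21) inhibits the kinases of the first phases. WEE1 is the textbook case of a cell cycle gene under clock control in mouse liver.

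The cells were U2OS, a human osteosarcoma line, and a line of the same cell type that the labels call U2OS-CHR and the series design U2OS-CHRONO; how it was made, and whether it is 1 clone, is not given in the sources used here. BMAL1 was precipitated from both lines after 200 nM dexamethasone at time labels 0, 4, 8, 12, 16 and 20 h. By the labels, time 0 fell 4 h ahead of the trough of a PBMAL1::Luc reporter rhythm, so the labels count from that rhythm and not from the drug. A single library of U2OS-CHRONO, without a time or treatment label, was precipitated with a Myc antibody, and the design names the target Myc-CHRONO. With 1 library per line and time there were no replicates, so the spread given is that over the 6 times. The 6 U2OS lists held between 337 and 6012 peaks, the BMAL1 lists of U2OS-CHRONO between 2429 and 9391, and the Myc list 2487. Read depth is unknown, and a longer list can come from more sequencing as well as from more binding. The known targets DBP, PER1, NR1D1, PER2 and CRY1 had a peak in each BMAL1 list. Counted from the top, the lowest place of the best peak in any list was 0.89% for DBP and 0.593% for PER1. For NR1D1, PER2 and CRY1 it was 1.19%, 5.64% and 46.1%.

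CDK4 and CDC25B had a peak at 6 of 6 times in U2OS and at 6 of 6 in U2OS-CHRONO, a pattern shared by 0.804% of all protein-coding genes. A BMAL1 peak in at least 1 list marked 41.5% of all genes, so the presence of 9 of the 10 members in some list is read against that share. The other 8 members had a peak in 6 of 48 possible combinations of gene and time in U2OS and in 20 of 48 in U2OS-CHRONO. Over all protein-coding genes, with none left out, the mean share with a peak per list was 9.93% in U2OS and 17.5% in U2OS-CHRONO. The peaks of these 8 members stood low in the lists. Of their 34 BMAL1 peaks none lay in the top 10% of its list, 5 lay in the top 30%, and 23 lay below the middle. The highest-placed of them was a WEE1 peak at 22.1% of its list, counted from the top, and the lowest a BUB1 peak at 99.5%. The 8 members are those left once the genes present in every list are set aside. No such counts for other genes called in as few lists are given here, so the low places are a description.

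**Figure D1:**
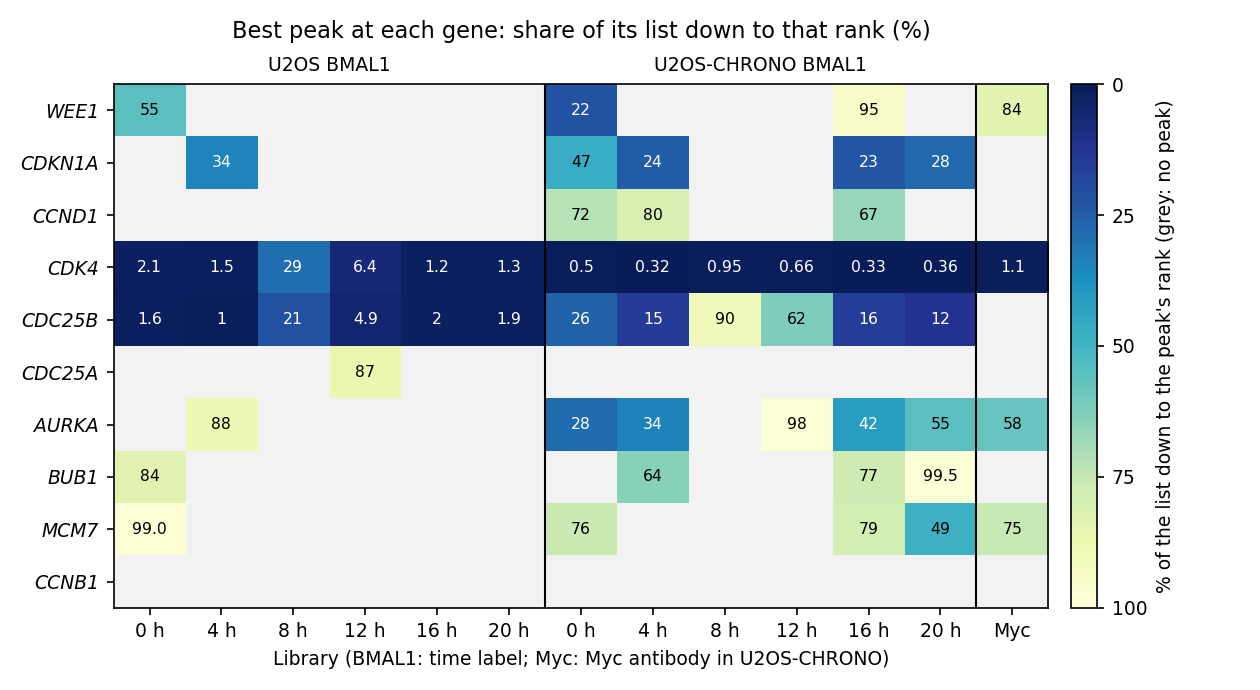
Rows are the 10 genes and columns the 13 lists; each coloured cell gives the place of the gene's best peak, as the percentage of the list down to its rank, and grey cells have no peak. CDK4 and CDC25B fill every BMAL1 column, CDK4 lies within the top 0.947% in every U2OS-CHRONO list, and CCNB1 is empty throughout.

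CDK4, the kinase partner of D cyclins, had the highest-placed peak of the 10 genes in every U2OS-CHRONO list and in the Myc list. Its site spanned chr12:57751614-57753097 and covered the transcription start at 57752310, with the gene running toward lower coordinates to 57747727. In the U2OS lists the CDK4 peak ranked 70 of 3397 at 0 h, 80 of 5287 at 4 h, 98 of 337 at 8 h, 115 of 1808 at 12 h, 34 of 2794 at 16 h and 78 of 6012 at 20 h. In U2OS-CHRONO it ranked 28, 26, 23, 26, 31 and 25 at the same times. Every U2OS-CHRONO rank was nearer the top than every U2OS rank, and the U2OS-CHRONO ranks stayed between 23 and 31. The authors' deposited scores of that peak ran from 76.5 (8 h) to 579 in the U2OS lists, and from 490 (also 8 h) to 1346 in U2OS-CHRONO. The score has no stated definition and ranks peaks only inside a list. Scores here and below therefore do not measure a difference in binding between lists or lines. The Myc list held the CDK4 site too, at rank 28 of 2487.

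The 250 bases before the CDK4 start are shown because they hold the element that BMAL1 is known to bind. Sequences are from RefSeq (GRCh38.p14), printed 5′ to 3′ along the gene's strand and ending at the base before the transcription start, with each match to CACGTG in capitals. The CDK4 window is chr12:57752311-57752560, minus strand.
CDK4: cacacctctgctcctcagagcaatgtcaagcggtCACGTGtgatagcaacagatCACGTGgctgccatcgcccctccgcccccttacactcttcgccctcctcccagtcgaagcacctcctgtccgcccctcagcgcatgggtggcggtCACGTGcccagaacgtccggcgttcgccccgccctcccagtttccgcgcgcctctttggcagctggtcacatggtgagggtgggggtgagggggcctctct
The CDK4 window held 3 copies of CACGTG, with first bases 216, 196 and 101 bases before the start. CACGTG reads the same on both strands. The first 2 copies begin 20 bases apart and the next lies 95 bases farther on. All 3 copies were covered by the CDK4 peak in 6 of 6 U2OS lists, in 6 of 6 U2OS-CHRONO lists and in the Myc list. Of 35116 RefSeq promoter windows of this length, 6.34% held at least 1 CACGTG and 0.0797% (28 windows) held 3 or more. CACGTT, searched on both strands and not overlapping CACGTG in its letters, stood in 4.55% of windows and in none of those of the 7 members with an entry.

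Over protein-coding genes with an entry, peaks over this window went with the number of copies. A BMAL1 peak in at least 1 list overlapped the window in 1970 of 14601 promoters without CACGTG (13.5%), in 488 of 1119 with 1 copy (43.6%), in 67 of 101 with 2 (66.3%) and in 17 of 22 with 3 or more (77.3%). All 12 BMAL1 lists had such a peak in 24, 11, 6 and 4 promoters of these classes. CDK4 was 1 of those 4, with ERP29, RAD9A and TMEM116. Promoters are not replicates, close neighbours can share one, and a match of letters is a description, not a binding site.

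CDK4 shares its site with neighbours. TSPAN31 and MARCHF9 lie so close that the CDK4 site fell inside their own 5 kb windows in all 12 BMAL1 lists and in the Myc list. Their RefSeq windows held no CACGTG. Beside the promoter site, U2OS-CHRONO lists had 1 peak each at 2 further sites upstream of CDK4, at 16 h and at 0 h, ranked 7929 of 9391 and 5445 of 5612. The peak at 0 h lay inside MARCHF9. A separate 16 h peak of U2OS-CHRONO, ranked 5903 of 9391, was joined to the promoter site and sets its upper end.

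CDC25B encodes a phosphatase that activates CDK1 at the entry to mitosis. Its constant site lay outside the gene, at chr20:3807194-3808811, beyond the 3′ end at 3806115 of a gene that starts at 3786951 on the plus strand. In U2OS the best peak of this site ranked 56 of 3397 at 0 h, 53 of 5287 at 4 h, 72 of 337 at 8 h, 88 of 1808 at 12 h, 56 of 2794 at 16 h and 117 of 6012 at 20 h. In U2OS-CHRONO it ranked 1449 of 5612, 1236 of 8240, 2183 of 2429, 2447 of 3919, 1456 of 9391 and 823 of 6873. Each U2OS-CHRONO rank was thus farther from the top than every U2OS rank. The deposited scores ran from 98.5 to 698 in the U2OS lists, and in U2OS-CHRONO from 51.2 to 197. No Myc peak lay at CDC25B.

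Within the same list, where length plays no part, the CDC25B site stood ahead of the CDK4 site at 4 of 6 times in U2OS and at 0 of 6 in U2OS-CHRONO. To set ranks side by side between lines, both lists of a time were cut to the length of the shorter, and a peak beyond that length was given the next rank. The CDC25B peak of U2OS-CHRONO fell outside the cut list at 8 and 12 h. The mean log2 ratio of ranks, U2OS-CHRONO over U2OS, was 3.89 ± 1.08 (SD, n = 6 times) for the CDC25B site, farther from the top in U2OS-CHRONO at 6 of 6 times, and -1.49 ± 0.73 for the CDK4 site, nearer the top at 6 of 6 times. Each gave a two-sided exact paired permutation p of 0.031, the smallest that 6 pairs allow, and an adjusted p of 0.079 (Benjamini-Hochberg) over the 167 regions with a peak in all 12 lists, which misses 0.05. No region passed that threshold, and 66 had an unadjusted exact permutation p under 0.05. Among those regions 31.1% were farther from the top in U2OS-CHRONO at 6 of 6 times and 8.38% were nearer at 6 of 6, and the median of the mean log2 ratio was 0.35. A mean ratio as high as that of the CDC25B site was found in 3 of the 167 regions, itself included. One as high as that of the CDK4 site, or higher, was found in 159 of the 167. This comparison was chosen after the ranks had been seen.

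**Figure D2:**
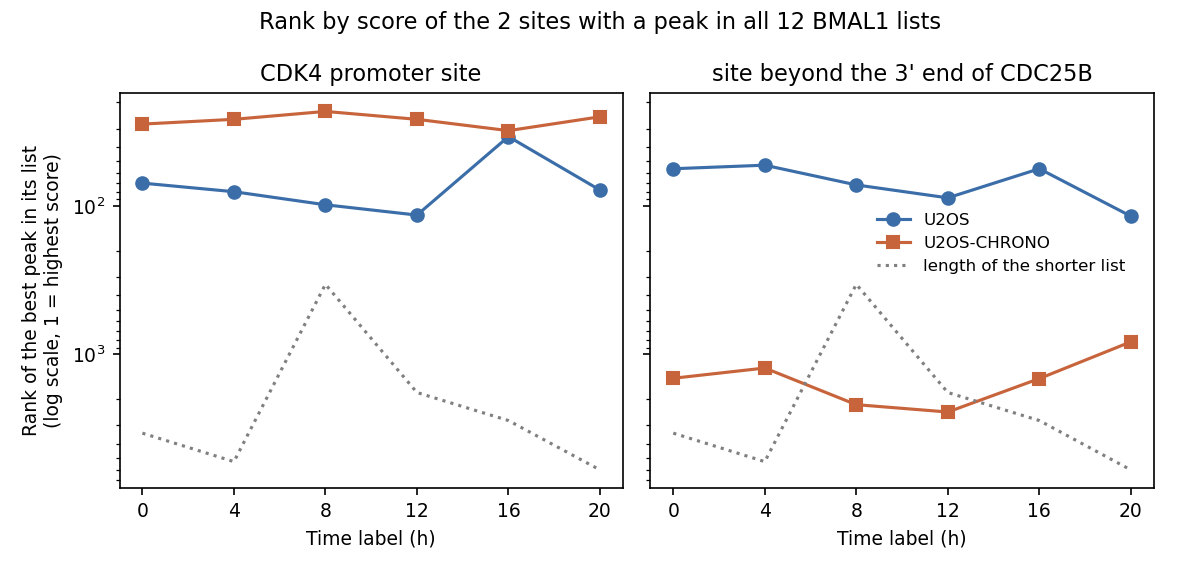
Rank of the best peak (log axis, 1 is the highest score, upward is nearer the top) by time label in U2OS (circles) and U2OS-CHRONO (squares), 1 library per point; the dotted line is the length of the shorter list. At CDK4 the U2OS-CHRONO ranks of 23 to 31 lie above those of U2OS, and at the CDC25B site the U2OS-CHRONO ranks of 823 to 2447 lie below the U2OS ranks of 53 to 117.

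The start of LINC01730, a long non-coding RNA on the plus strand, lies in the joined CDC25B site, 2379 bp beyond the end of CDC25B. The peaks of U2OS at 12 h and of U2OS-CHRONO at 0, 8 and 12 h stopped short of that start. The nearest protein-coding gene in that direction, AP5S1, begins 14432 bp beyond the end of CDC25B. The 250 bases before the LINC01730 start (chr20:3808244-3808493, plus strand) are the part of the site whose letters were at hand, and are shown with CACGTG in capitals.
LINC01730: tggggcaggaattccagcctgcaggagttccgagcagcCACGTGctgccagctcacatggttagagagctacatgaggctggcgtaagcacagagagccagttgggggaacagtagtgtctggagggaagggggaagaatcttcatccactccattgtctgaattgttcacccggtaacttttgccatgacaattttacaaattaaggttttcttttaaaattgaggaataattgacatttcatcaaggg
The single CACGTG of this window began 212 bases before the LINC01730 start, and the peak covered it in 6 of 6 lists of each line. The RefSeq windows of 4 annotated CDC25B starts held neither motif. CDC25B itself had weaker peaks at 2 sites in the gene, chr20:3795603-3795958 and chr20:3796013-3796416, which cover annotated starts of shorter CDC25B transcripts at 3795789 and 3796310. The first was called in 1 U2OS-CHRONO list, and the second at 20 h in U2OS and at 4, 16 and 20 h in U2OS-CHRONO, with a best rank of 1652 of 9391 at 16 h.

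**Figure D3:**
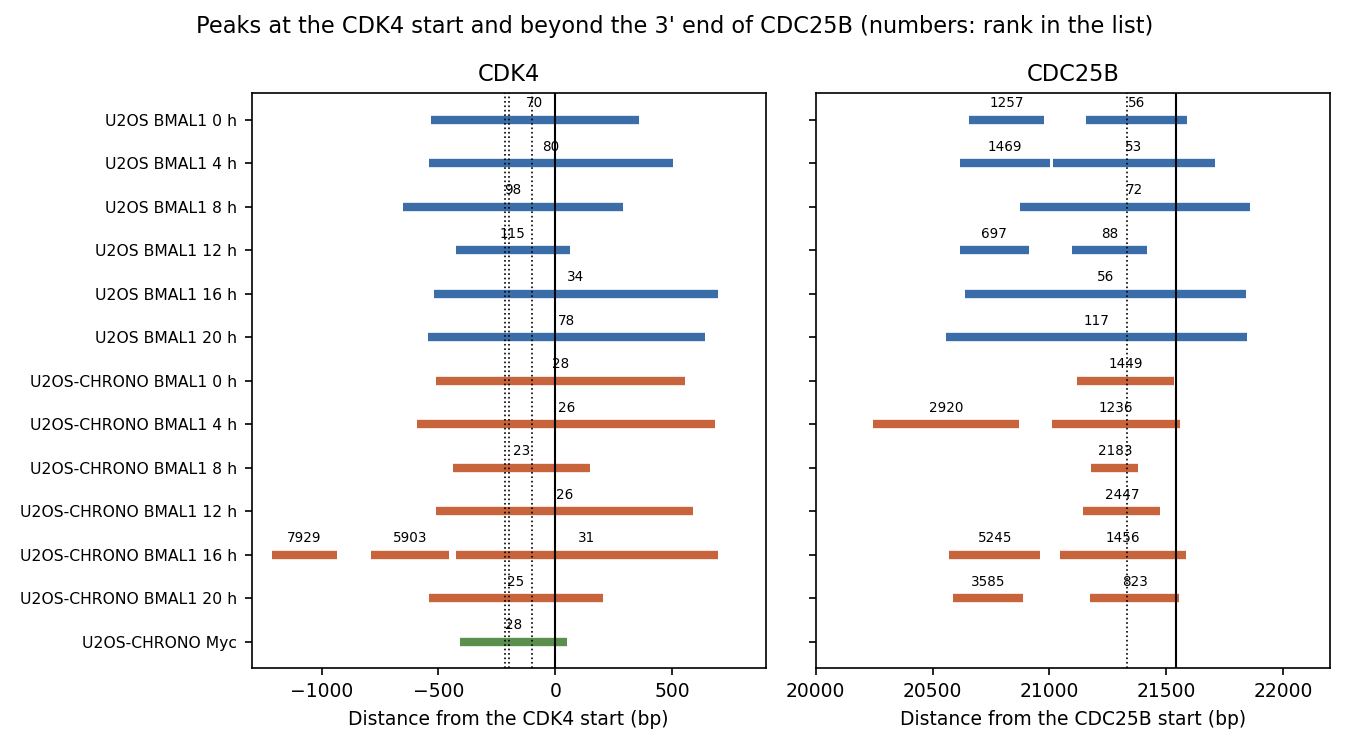
Peaks (bars) of each list by distance from the gene's start in bp, with the rank above each bar: left, CDK4, where the solid line is its start and the dotted lines are the 3 CACGTG copies; right, the site beyond CDC25B, where the solid line is the LINC01730 start and the dotted line its CACGTG. Every BMAL1 list has a bar over each dotted line, and the Myc list has one at CDK4 alone.

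WEE1, the kinase that restrains CDK1, had few peaks. A site over its lower-coordinate end, chr11:9573371-9573763 with the gene at 9573670 to 9589985, was called at 0 h in both lines. Its score was 67.6 at rank 1879 of 3397 in U2OS, and 138 at rank 1239 of 5612 in U2OS-CHRONO. A separate WEE1 peak outside the gene came at 16 h in U2OS-CHRONO, at rank 8894 of 9391. The Myc peak at WEE1 lay inside the gene, at chr11:9575422-9575594, apart from both BMAL1 sites, at rank 2089 of 2487. WEE1 was thus in 1 U2OS list and 2 U2OS-CHRONO lists, and the BMAL1 and Myc peaks did not overlap.

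CDKN1A, the p21 inhibitor induced by p53, had its recurrent peaks inside the gene. The main pair of sites, chr6:36680107-36680818 and chr6:36682736-36683223, are centred 1748 and 4265 bp downstream of the annotated start at 36678714. Both were called at 4 h in U2OS and at 0, 4, 16 and 20 h in U2OS-CHRONO. At the first of these sites the scores were 95.9 in U2OS, and 57.2, 139, 68.8 and 67.4 at those times in U2OS-CHRONO. At the second they were 53.2 in U2OS, and 82.0, 73.4, 130 and 113 in U2OS-CHRONO. The lists of 8 and 12 h had no CDKN1A peak in either line, and neither had the Myc list. A further peak at 20 h in U2OS-CHRONO, upstream of the gene, overlapped the lncRNA gene PANDAR.

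CCND1, cyclin D1, the partner of CDK4, had a peak in no U2OS list and in 3 U2OS-CHRONO lists. Peaks over its lower-coordinate end at 69641156 were called at 0 and 16 h with scores of 60.3 and 63.2, and a peak 362 bp outside the gene at 4 h with 56.9. These stand close to the lowest score deposited, 50, and the peaks lay at 66.6% to 80.4% of their lists.

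AURKA, the mitotic kinase Aurora A, had a peak in 1 U2OS list (4 h) and in 5 U2OS-CHRONO lists (all but 8 h), at 1 site, chr20:56392089-56392844. The U2OS score was 53.5, and the U2OS-CHRONO scores were 115, 108, 50.2, 87.2 and 71.7 at 0, 4, 12, 16 and 20 h. The best rank was 1587 of 5612 at 0 h. CSTF1, a polyadenylation factor, starts 163 bp beyond AURKA on the plus strand, and all 6 peaks overlapped CSTF1, whereas 2 overlapped AURKA itself. The Myc peak, at rank 1439 of 2487, also lay over CSTF1. The window before the second annotated CSTF1 start, at 56392645, held 2 copies of AACGTG, the reverse complement of CACGTT, and all 5 U2OS-CHRONO peaks covered both. The U2OS peak covered 1 of them.

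BUB1, a kinase of the spindle checkpoint, and MCM7, a subunit of the replicative helicase, had weak peaks at their starts. The BUB1 site, chr2:110677943-110678402, was called at 0 h in U2OS with a score of 54.1, and at 4 and 16 h in U2OS-CHRONO with 66.6 and 57.6. It also holds the start of LOC105373554, a non-coding RNA of the opposite strand. A lone BUB1 peak deep in the gene at 20 h in U2OS-CHRONO had a score of 50.1. The MCM7 site, chr7:100101225-100101710, was called at 0 h in U2OS with a score of 50.1 and at 0, 16 and 20 h in U2OS-CHRONO with 58.2, 56.6 and 79.0. The Myc list had it with 52.2. An annotated start of AP4M1, transcribed the other way, lies in the same site at 100101643. The hairpins MIR25 and MIR106B inside MCM7 were overlapped by no peak of the 13 lists.

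The windows of MCM7 (chr7:100101398-100101647, minus strand), BUB1 (chr2:110678064-110678313, minus strand) and CCNB1 (chr5:69166900-69167149, plus strand) are set together because peaks and CACGTG do not run in parallel among them.
MCM7: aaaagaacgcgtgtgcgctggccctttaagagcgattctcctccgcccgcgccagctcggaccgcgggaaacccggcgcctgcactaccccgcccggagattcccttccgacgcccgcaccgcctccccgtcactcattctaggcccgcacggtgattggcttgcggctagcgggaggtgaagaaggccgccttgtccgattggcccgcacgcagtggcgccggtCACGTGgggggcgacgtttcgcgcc
BUB1: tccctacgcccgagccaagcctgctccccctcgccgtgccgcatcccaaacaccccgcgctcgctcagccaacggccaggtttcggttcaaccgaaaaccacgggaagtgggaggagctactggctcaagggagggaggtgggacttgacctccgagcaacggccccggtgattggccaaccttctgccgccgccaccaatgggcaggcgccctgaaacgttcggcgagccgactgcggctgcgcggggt
CCNB1: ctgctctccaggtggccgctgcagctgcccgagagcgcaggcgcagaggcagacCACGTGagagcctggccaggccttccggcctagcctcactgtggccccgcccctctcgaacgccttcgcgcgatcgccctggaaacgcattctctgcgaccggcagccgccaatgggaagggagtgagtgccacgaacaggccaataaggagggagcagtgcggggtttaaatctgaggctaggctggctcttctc
MCM7 held 1 CACGTG, 25 bases before its start, covered by the peak in 1 U2OS list, 3 U2OS-CHRONO lists and the Myc list. BUB1 held none and had a peak there in 3 BMAL1 lists. CCNB1, cyclin B1, which drives mitosis with CDK1, held 1 CACGTG, 196 bases before its start, and no list had a peak within 5 kb of the gene. CDC25A, which encodes a phosphatase acting earlier in the cycle than CDC25B, held no CACGTG in its window. It had a single peak, inside the gene at 12 h in U2OS, with a score of 52.0 at rank 1573 of 1808.

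By time, the members' counts stand beside the share of all genes with a peak, since lists differ in length. In U2OS, 5 members had a peak at 0 h, 4 at 4 h, 2 at 8 h, 3 at 12 h, 2 at 16 h and 2 at 20 h. Of all protein-coding genes, 11.2%, 15.7%, 1.3%, 5.88%, 9.34% and 16.2% had one at these times. In U2OS-CHRONO the counts were 7, 6, 2, 3, 8 and 6 of 10, against 18.4%, 23%, 7.96%, 11.5%, 24.7% and 19.3% of all genes. At 8 h the only members with a peak in either line were CDK4 and CDC25B. In U2OS at 20 h the list was the longest of that line and again held these 2 alone, although 16.2% of all genes had a peak. The median window of the members, with both flanks, was 24.8 kb, against 34.1 kb for all genes.

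**Figure D4:**
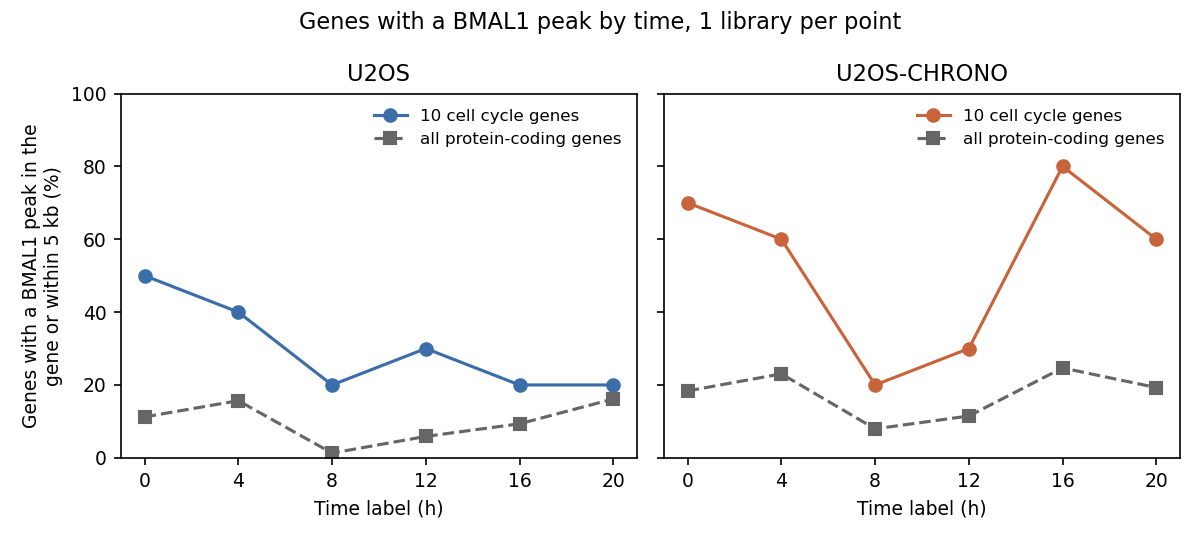
Percentage of the 10 cell cycle genes (circles) and of all protein-coding genes (squares, dashed) with a BMAL1 peak in the gene or within 5 kb, by time label, 1 library per point, U2OS left and U2OS-CHRONO right. Both lines of the plot have their lowest point for all genes at 8 h, and the members' highest point is 80% at 16 h in U2OS-CHRONO.

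Between the lines, U2OS had 3.00 ± 1.26 members per list (SD, n = 6 times) and U2OS-CHRONO 5.33 ± 2.34, a difference of 2.33 ± 2.34. The SD of the difference is its spread over times and does not test it. The U2OS-CHRONO count was higher at 4 times and equal at 8 and 12 h. Over all protein-coding genes the mean share was 9.93% ± 5.74 in U2OS and 17.5% ± 6.53 in U2OS-CHRONO (SD, n = 6 times). The ratio of means was 1.78 for the members and 1.76 for all genes. CDK4 and CDC25B, present at every time in both lines, could not differ in this count, and the other 8 members went from 6 to 20 of 48 combinations of gene and time. The shares over all genes left out no genes present at every time, so they are not a matched reference for these 8. With lists of equal length at each time the difference fell to 0.33 ± 1.75. CCND1 then had no peak at all, and BUB1, MCM7 and WEE1 had 1 in each line. AURKA had 3 U2OS-CHRONO times against 1 in U2OS, CDKN1A 4 against 1, and CDC25B 4 against 6.

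Gene by gene, 6 members had a peak at more times in U2OS-CHRONO, as did 69.1% of the 8307 genes with a BMAL1 peak in some list. CDC25A alone had more in U2OS, as did 17.8% of those genes. AURKA alone had 4 additional U2OS-CHRONO times, a margin reached by 7.4% of those genes. The two-sided exact paired permutation p was 0.125 for AURKA (5 times against 1), 0.25 for CDKN1A (4 against 1) and for CCND1 (3 against 0), 0.5 for MCM7 (3 against 1), and 0.5 or more for the others with a peak. After Benjamini-Hochberg adjustment over the 8307 genes each exact permutation p was 1. No gene of the series passed, and 34 had an unadjusted exact permutation p of 0.031, the smallest possible with 6 pairs. A p that misses the threshold does not show that the lines act alike.

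In the Myc list, 4 of the 10 members had a peak: CDK4, AURKA, MCM7 and WEE1, against 9.8% of all protein-coding genes. Whether the antibody also took the cells' own MYC was not tested. At CDK4, AURKA and MCM7 the Myc peak overlapped a BMAL1 site, and at WEE1 it did not. How many of all Myc peaks overlap a BMAL1 site is not given here, so this is a description of the members alone. CDK4 was at 1.13% of the Myc list, counted from the top, and the other 3 at 57.9%, 75.2% and 84.0%.

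Among 55 other cell cycle genes, in 7 lists by role, 27 (49.1%) had a BMAL1 peak in some list, beside 41.5% of all genes. A Myc peak was present in 12 (21.8%), beside 9.8% of all protein-coding genes. None had a peak in all 12 BMAL1 lists, a pattern of only 0.804% of all genes. Of the 27 with a BMAL1 peak, 22 had more U2OS-CHRONO than U2OS times and 3 had fewer. Among the 8307 genes with a BMAL1 peak the shares were 69.1% and 17.8%. None of the 27 had an exact permutation p under 0.05, adjusted or not, and genes without a BMAL1 peak were not tested. With 6 pairs the unadjusted p falls under 0.05 only where the lines differ at 6 of 6 times, so this says little. Cyclins and CDKs had 5 of 10 genes with a BMAL1 peak, CDK inhibitors 4 of 6, the relatives of WEE1 and CDC25 1 of 2, mitotic and spindle checkpoint genes 4 of 10, replication licensing genes 4 of 10, E2F and RB genes 4 of 9, and checkpoint and ubiquitin ligase genes 5 of 8. The median number of BMAL1 lists was 4 for the members and 0 for these 55 genes and for all genes.

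The most often marked of them were relatives of CCND1 and CDK4. CCND2, cyclin D2, and CDK6, the other kinase of D cyclins, each had a peak at 5 U2OS and 6 U2OS-CHRONO times. The best CCND2 peak lay at 1.76% of its list from the top and the best CDK6 peak at 6.24%. CCND3, cyclin D3, had a peak at 1 and 5 times, CDKN1B, the p27 inhibitor, at 2 and 3, ATM, a DNA damage kinase, at 1 and 4, and CDKN2C, the p18 inhibitor, at 1 and 3. CDKN2D, the p19 inhibitor of the same family, tied with CDKN2C at 4 lists, with a peak at 0 U2OS and 4 U2OS-CHRONO times (exact permutation p = 0.125, adjusted p = 1). CCND2, CCND3 and CDKN1B also had a Myc peak. Any peak in a gene's window counts, and long genes have more room for one. CDK6 (chr7:92604921-92836573), CCND3 (chr6:41934933-42050035) and ATM (chr11:108223067-108369102) are long beside the median window of 34.1 kb over all genes. Whether the same site recurred from list to list at these genes is not given here.

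Genes with the profile most like a member's were found by the mean absolute difference in score percentile over the 12 BMAL1 lists, with 0 where a list had no peak. For CDKN1A these were CISH (2.44 percentile points) and SUPV3L1 (4.16), both with peaks in the same lists as CDKN1A. For CCND1 they were SMIM29 (0.851) and TBPL2 (1.06), again in the same lists. For AURKA they were C4orf33 (2.95) and LEF1 (3.20), for WEE1 FAHD1 and HAGH (2.05 each), for BUB1 KBTBD2 (1.46) and PRELID3A (1.64), and for MCM7 CIAO2A and SNX1 (1.17 each). Their peaks were present or absent as at the member in 10 or 11 of the 12 lists. FAHD1 and HAGH had equal values, as had CIAO2A and SNX1, and whether each pair shares the same peaks was not tested. With so few peaks per gene such likeness is a description alone.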

How the data were processed

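Chromatin immunoprecipitation of BMAL1 (12 libraries) and Myc (1 library) in U2OS and U2OS-CHRONO was analysed from 13 deposited peak lists. The 3 input libraries were not analysed here. Each list gives chromosome, start, end, name and a score. This deposited score has no stated definition and was used for ranks and a minimum inside one list. MACS 1.4.2 and HOMER 4.10.3, with bedtools and the build hg38, stand in the submitters' processing notes, without their roles. Aligner, depth, control and filters: not given in the sources used here. Starts were raised by 1 to count from 1.

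Genes were the 20037 placed protein-coding genes of RefSeq GRCh38.p14, the assembly of hg38, and all members and other list genes matched by symbol. A gene had a peak when at least 1 bp of it lay in the gene or within 5 kb. Sites joined member peaks of the 13 lists that shared 1 bp. Place in a list is rank over length. Strand, start and sequence came from RefSeq promoter entries (7 of 10 members; WEE1, CCND1 and AURKA had none).

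Lines were compared per gene by a two-sided exact sign-flip permutation test over the 6 labelled times, which served as pairs, with Benjamini-Hochberg adjustment over the 8307 genes with a BMAL1 peak. The same test on log2 ranks over the 167 regions in all 12 lists was added later. The members, lists and tests were chosen with earlier results of these data known. Named genes were the 10 members, the 6 other cell cycle genes in most BMAL1 lists (ties broken by mean score percentile, with the tied CDKN2D added), genes sharing a member's peaks, and the 2 nearest profiles of each member in 3 to 11 lists. LINC01730, LOC105373554, PANDAR, AP5S1 and the hairpins were named after their places were seen, as were ERP29, RAD9A and TMEM116. Alternatives were windows of 1 and 10 kb, gene ends alone, a score of at least 100, equal list lengths, 50% of a peak inside the window, no pairing, and each time left out. The scripts were tested on simulated data. Gene calls equalled those of bedtools 2.31.1 for 13 of 13 lists. Python 3.11.15, NumPy 2.4.6, pandas 2.3.3 and matplotlib 3.10.9 were used.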

Additional observations from a re-analysis of the deposited data

Results flagged for a closer look

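Among 6 sets of 6 lists tested for a list far from the rest, 2 had one, and both were the U2OS list of 8 h, which holds 337 peaks. The CDK4 site stood at 29.1% of that list from the top, with a gap to the next list of 0.82 of the whole range, and the CDC25B site at 21.4%, with a gap of 0.81. Chance gives about 1 such set in 20. By rank the same peaks, 98 and 72, lay within the range of the other U2OS lists.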

How the results depend on the processing

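The mean line difference in members with a peak stayed above 0 in 12 of 12 alternatives. The count of 0 genes past the adjusted threshold says nothing about stability: the smallest possible exact permutation p is 0.031 with 6 pairs and 0.0625 with a time left out. With no replicate block, that is without pairing by time, 0 of 8307 genes passed and 179 had an unadjusted exact permutation p under 0.05. With only 1 kb around gene ends U2OS lists held 1.67 members, since the peaks of CDC25B, CDKN1A and CDC25A lie elsewhere. Windows of 10 kb added Myc peaks at CDC25B and CDKN1A, for 6 members. With a score of at least 100 U2OS lists held 1.67 members, U2OS-CHRONO lists 2.67, and the Myc list 1, CDK4. Equal list lengths took the line difference to 0.33, with fewer members in U2OS-CHRONO than in U2OS at 8 and 12 h. With each time left out in turn U2OS lists held 2.6 to 3.2 members and U2OS-CHRONO lists 4.8 to 6.0, and the difference was 1.6 to 2.8. A window of 1 kb took CDC25B from 6 and 6 times to 1 and 4, since its constant site lies farther out. The rank ratio, chosen after seeing the data, was 3.73 to 4.22 for the CDC25B site and -1.76 to -1.36 for CDK4 with a time left out. By share of the full list in place of rank it was 3.20 and -2.70. The unknown depth limits each statement on the absence of a peak: a peak missing from a list, most of all the 337 peaks of U2OS at 8 h, is not shown to be absent from the cells.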
